A study of Mus musculus with 36 samples.

Results

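*Casp8* C362A/C362A *Cflar*-/- *Mlkl*-/- intestines were compared with *Casp8* C362A/C362A *Mlkl*-/- intestines, so that by their labels the groups differed in *Cflar* alone. The comparison holds 6 of the 36 RNA-seq libraries of the study, 3 embryos of each genotype, picked by the genotype in their labels, and all 19408 genes that passed the filter on low counts were tested. Whole intestines were taken untreated at E18.5, shortly before birth. Below, *Casp8* C362A/C362A *Cflar*-/- *Mlkl*-/- is shortened to *Cflar*-/- and *Casp8* C362A/C362A *Mlkl*-/- to C362A control. Both groups are labelled as knockouts of *Mlkl*, whose product permeabilizes membranes in necroptosis, and carry caspase-8 with its catalytic cysteine replaced by alanine (C362A). The *Cflar* deletion was made by injecting 2 guide RNAs with Cas9 into *Casp8* C362A/+ *Mlkl*-/- zygotes. *Mlkl*-/- intestines of the same set (3 embryos, functional *Casp8* and *Cflar*) serve below as the level without the C362A allele. A further comparison uses another *Casp8* allele, D387A, which hinders cleavage of caspase-8 by itself. It sets *Casp8* D387A/D387A *Cflar*-/- *Mlkl*-/- intestines against *Casp8* D387A/D387A intestines with intact *Cflar* and *Mlkl* (3 embryos each).

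*Cflar* encodes cFLIP, a relative of caspase-8 that lacks protease activity and joins caspase-8 on the adaptor FADD. The heterodimer of cFLIP and caspase-8 limits necroptosis, and cFLIP can limit apoptosis. The study proposes that heterodimers of cFLIP with caspase-8 D387A can also promote apoptosis. A scaffold of FADD, caspase-8 and RIPK1 can signal to cytokine genes. Most results below concern 2 programs, although the 28 pathway lists together hold 141 of the 1177 genes that changed. One is the response to interferon, in which STAT and IRF transcription factors switch on guanylate-binding proteins (GBPs), immunity-related GTPases (IRGs), antiviral effectors, chemokines and the peptide loading machinery. The other is the program of absorptive enterocytes, the cells that line the villi, carry digestive enzymes on their brush border and package dietary fat with apolipoproteins.

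The GBP and IRG genes were the pathway list in which every member passed the threshold as lower, and their start regions hold the letters that IRF-containing complexes are known to bind. The interferon-stimulated response element (ISRE) was searched as a pair of GAAA repeats with 2 bases of any kind between them, on both strands of RefSeq windows running from 250 bases before to 50 bases after each annotated start (GRCm38.p6). It was present in 9 of the 10 GBP and IRG genes that have a window (90.0%) and in 3.9% of the 12890 tested genes that have one. For each of the 9 genes 1 match is shown with 20 bases on either side, 5′ to 3′ on the strand of the gene, and capitals mark the element or its reverse complement.
*Gbp2*, chr3:142620584-142620633 (+ strand): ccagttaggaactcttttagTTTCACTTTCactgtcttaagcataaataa
*Gbp3*, chr3:142559979-142560028 (+ strand): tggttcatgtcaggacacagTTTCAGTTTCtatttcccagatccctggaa
*Gbp5*, chr3:142496749-142496798 (+ strand): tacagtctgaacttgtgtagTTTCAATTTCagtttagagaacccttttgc
*Gbp7*, chr3:142530263-142530312 (+ strand): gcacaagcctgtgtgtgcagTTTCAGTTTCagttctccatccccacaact
*Irgm1*, chr11:48871421-48871470 (- strand): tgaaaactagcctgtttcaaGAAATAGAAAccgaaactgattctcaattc
*Irgm2*, chr11:58214893-58214942 (+ strand): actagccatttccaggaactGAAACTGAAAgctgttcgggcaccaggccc
*Igtp*, chr11:58199502-58199551 (+ strand): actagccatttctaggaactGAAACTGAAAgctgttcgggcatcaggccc
*Tgtp1*, chr11:48992294-48992343 (- strand): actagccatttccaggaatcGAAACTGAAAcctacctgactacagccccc
*Tgtp2*, chr11:49064253-49064302 (- strand): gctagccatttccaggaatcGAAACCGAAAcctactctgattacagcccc
*Irgm1* held a further match that overlaps the one in capitals. *Gbp3* had 2 windows, and the window shown held 2 matches. The element shown lay 20 to 155 bases before the start in these genes, read on the gene's own strand in the 5 IRGs and as its reverse complement in the 4 GBPs. *Ifi47*, the tenth gene with a window, held no match there. Letters of the STAT site (GAS, TTCNNNGAA, both strands) were in 6 of the 10 windows (60.0%) and in 8.4% of those of all tested genes. In the other interferon-linked lists, the ISRE letters were in 16 of 32 windows of antiviral genes (50.0%), 5 of 18 of MHC class I genes (27.8%) and 2 of 23 of chemokine genes (8.7%). They were in 1 of 8 windows of MHC class II genes (12.5%) and in 0 of 9 of interferon and receptor genes. Such a match is a description of the sequence, and binding was not measured.

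Reads on genes numbered 21757868 to 24337677 in the *Cflar*-/- libraries and 25509179 to 26958432 in the C362A control libraries. Mitochondrial genes held 1.03, 0.846 and 1.09% of these reads in the former and 1.25, 1.84 and 1.78% in the latter, without overlap. Whether this difference bears on the changes below was not tested. Levels are given per length as RPKM (reads per kilobase of gene, scaled to library size), always in the order of replicates 1, 2 and 3. The *Cflar*-/- library of replicate 3 stood apart from the other two. Among the 3 libraries of its genotype it was the closest to the C362A control mean in 223 of 281 genes called higher (79.4%) and in 631 of 896 called lower (70.4%). Without it 1713 genes were called in place of 1177, with 641 higher and 1072 lower.

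*Cflar* transcript was lower, but far from absent, in the *Cflar*-/- intestines. Its levels were 5.64, 5.04 and 5.58 RPKM in *Cflar*-/- embryos and 7.95, 8.76 and 9.21 in C362A control embryos. The groups did not overlap (log2 fold change -0.67 ± 0.10 (SE), adjusted p = 0.00068), and the fall stayed short of the 2-fold threshold. The deletion is small, and counts over all exons of the gene (chr1:58711508-58758884 in GRCm38) do not show whether the deleted part was read. *Casp8*, on the same chromosome, was at 50.6, 46.7 and 51.6 against 49.2, 47.3 and 49.9 RPKM and overlapped between the groups (log2 fold change 0.02 ± 0.12 (SE), adjusted p = 0.92). Reads on *Mlkl* remained in both groups, 13.3, 9.14 and 9.66 against 15, 18 and 17.8 RPKM (log2 fold change -0.66 ± 0.18 (SE), adjusted p = 0.02), and its libraries did not overlap. These *Mlkl* levels were above the 1.07, 1.25 and 1.94 RPKM of *Mlkl*-/- intestines and the 7.03, 6.92 and 5.5 of *Casp8* D387A/D387A intestines with intact *Mlkl*. Reads also remained in *Casp8* D387A/D387A *Cflar*-/- *Mlkl*-/- intestines (13.5, 11.3 and 13.7 RPKM). The counts thus do not show the *Mlkl* knockout that the labels give to both groups. Whether the reads come from a transcript without function was not tested.

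A gene counts as called where its log2 fold change passed 1 in either direction and its adjusted p was below 0.05 (edgeR's quasi-likelihood test). *Cflar* loss changed 1177 of 19408 genes (6.06%), of which 281 were higher (1.45%) and 896 lower (4.62%). By the adjusted p alone 6.95% of genes were higher and 12.4% lower. In 1104 of the called genes the 3 and 3 libraries did not overlap, against 32.3% of all genes tested (13.0% higher and 19.3% lower), and the median change of all genes was a log2 fold change of -0.02. The 10 largest falls included genes of enterocytes and *Ifng*, and the 10 largest rises included metallothioneins. Of the 28 lists of pathway genes, GBP and IRG GTPases had the lowest median and hypoxia and glycolysis the highest, as the plot of list members shows. Up to 4 genes of each list are described by a rule that takes called members without overlap between the groups, as are the largest changes, so the lack of overlap in these genes follows from the choice and is no support.

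**Figure D1:**
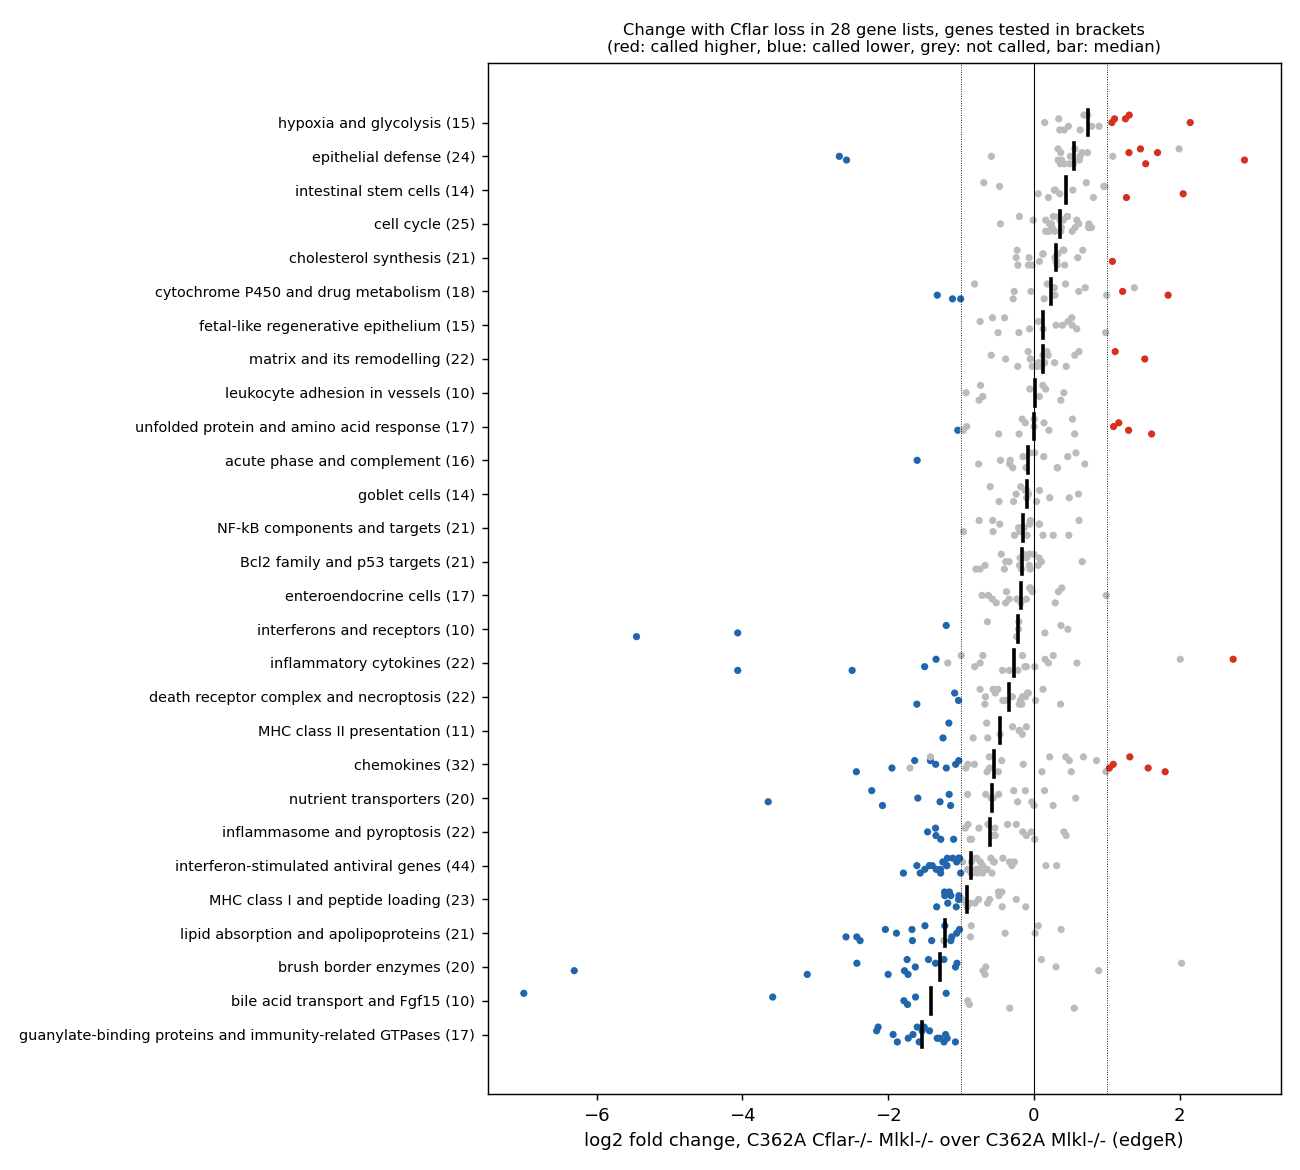
Each point is a tested gene of 1 of 28 pathway lists (rows, number of genes tested in brackets), placed by its log2 fold change of *Casp8* C362A/C362A *Cflar*-/- *Mlkl*-/- over *Casp8* C362A/C362A *Mlkl*-/-, with black bars for list medians and dotted lines at -1 and 1. All 17 GBP and IRG genes lie below -1, while the points left of -5 are *Fgf15*, *Tmprss15* and *Ifnb1*, whose fitted values rest on 0 to 2 reads in the *Cflar*-/- libraries.

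All 17 GBP and IRG GTPases, which attack the membranes of intracellular pathogens, fell with *Cflar* loss, with log2 fold changes from -2.16 to -1.08 and a median of -1.53. The share called lower among all genes was 4.62%. *Gbp2* was at 22.6, 24.6 and 39 RPKM in *Cflar*-/- and 125, 88.1 and 103 in C362A control intestines (log2 fold change -1.87 ± 0.22 (SE), adjusted p = 0.00015). *Gbp4* was at 10.2, 11.7 and 13.8 against 38.7, 49.2 and 48.6 RPKM (log2 fold change -1.93 ± 0.16 (SE), adjusted p = 3.3e-05). *Gbp10* (log2 fold change -2.16 ± 0.24 (SE), adjusted p = 0.00015) and *Gbp11* (log2 fold change -2.14 ± 0.35 (SE), adjusted p = 0.00091) fell as far. *Gbp11* is annotated as a polymorphic pseudogene. Loss was partial. In *Mlkl*-/- intestines *Gbp2* was at 2.25, 2.79 and 2.22 RPKM, and all 17 genes were called higher than there in the C362A control and in the *Cflar*-/- intestines, with median log2 fold changes of 5.38 and 3.58. These 2 comparisons share the *Mlkl*-/- libraries and called 18.0% (10.4% higher and 7.55% lower) and 24.6% (13.4% higher and 11.2% lower) of all genes. The count of 17 became 16 without C362A control replicate 3 or *Cflar*-/- replicate 2. Copies of these genes are close in sequence, and reads that match several copies are absent from unique alignments, so the single values are uncertain.

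**Figure D2:**
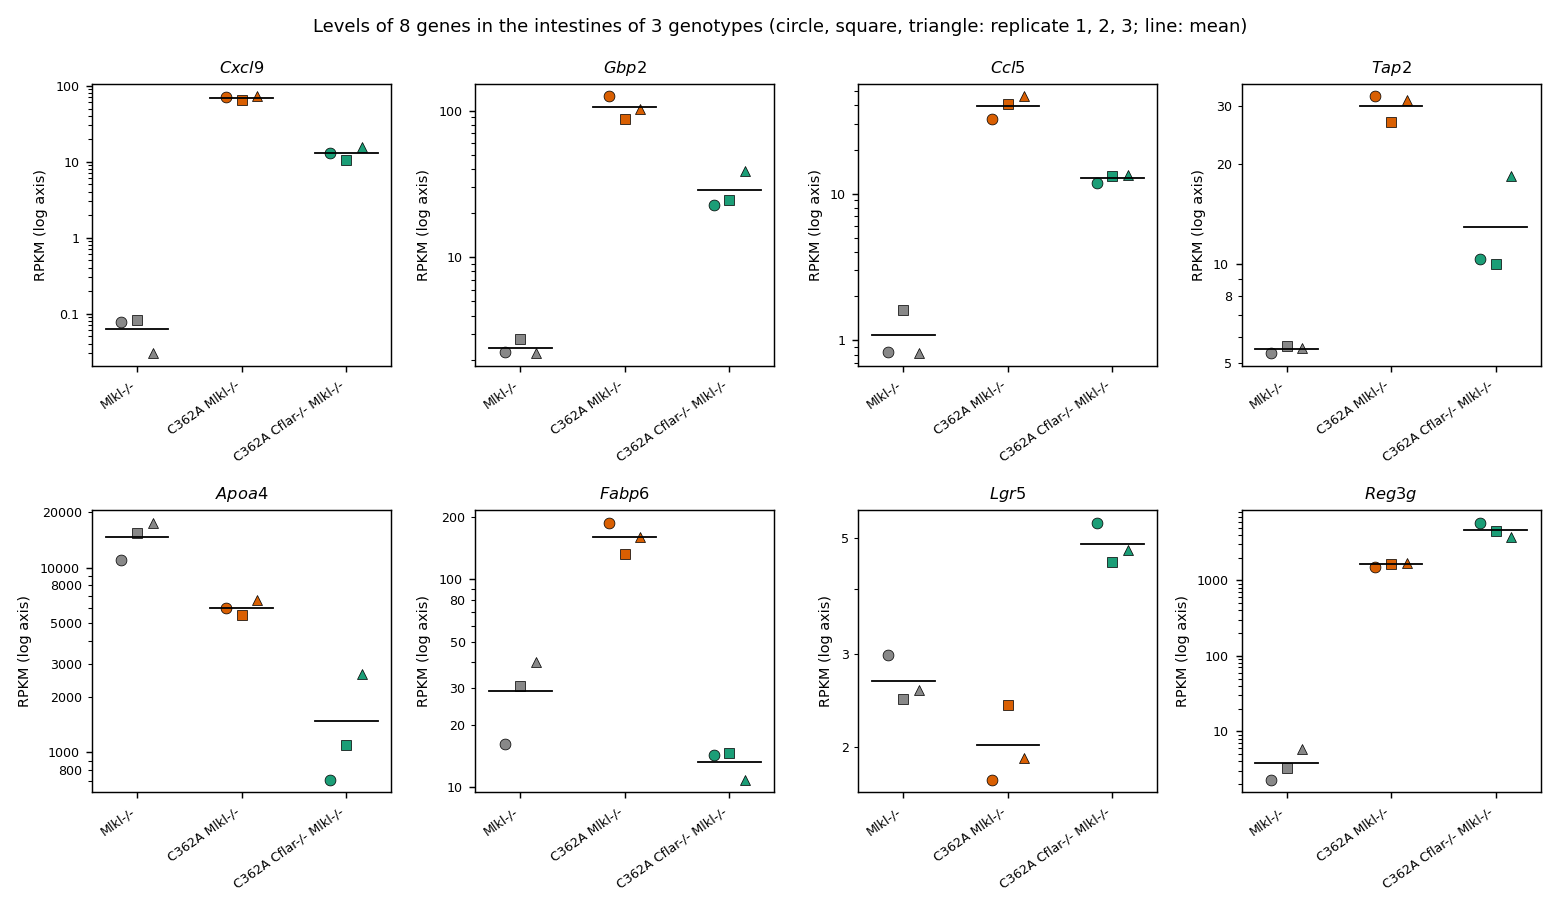
RPKM (log axes) of 8 genes in each of 3 intestines of the genotypes *Mlkl*-/-, C362A *Mlkl*-/- and C362A *Cflar*-/- *Mlkl*-/-, with symbols for replicates and lines for means. *Cxcl9*, *Gbp2*, *Ccl5* and *Tap2* sit between the other genotypes with *Cflar* loss, *Apoa4* and *Fabp6* sit below both, and *Lgr5* and *Reg3g* above both.

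Antiviral effectors fell less far. Of 44 interferon-stimulated antiviral genes 18 were called lower and none higher, 42 had a fold change below 0, and the median was -0.86. *Isg20*, an RNA exonuclease, was at 15.3, 18.3 and 29.9 against 66.6, 72 and 81.1 RPKM (log2 fold change -1.79 ± 0.22 (SE), adjusted p = 0.00022). *Herc6*, a ligase that attaches ISG15 to proteins, was at 4.2, 5.73 and 14.8 against 23, 24 and 28.4 RPKM (log2 fold change -1.61 ± 0.34 (SE), adjusted p = 0.0049). The RNA-binding *Ifit2* (log2 fold change -1.5 ± 0.35 (SE), adjusted p = 0.0085) and its relative *Ifit1bl1* (log2 fold change -1.56 ± 0.34 (SE), adjusted p = 0.0054) fell to a similar extent. *Herc6* and *Ifit2* had log2 fold changes of -2.34 and -2.15 without *Cflar*-/- replicate 3. The GTPase gene *Mx1* fell to 57.6, 33.2 and 45.4 from 78.8, 127 and 125 RPKM (log2 fold change -1.28 ± 0.30 (SE), adjusted p = 0.0093). *Oas3*, which makes the activator of RNase L, was at 22.7, 18.3 and 27.5 against 36.6, 35.6 and 43.1 RPKM and was not called because its change was under 2-fold (log2 fold change -0.75 ± 0.17 (SE), adjusted p = 0.0073). *Ifitm1*, which hinders viral entry, overlapped between the groups (log2 fold change 0.31 ± 0.12 (SE), adjusted p = 0.094). In *Mlkl*-/- intestines the summed level of the list was 435, 565 and 649 RPKM, against 8023, 8153 and 9124 in C362A control and 4355, 4031 and 5098 in *Cflar*-/- intestines. Without *Cflar*-/- replicate 2 the list had 9 genes called lower.

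Genes that present peptides to cytotoxic T cells moved with them. All 23 MHC class I and peptide loading genes had a fold change below 0, 9 were called lower, and the median was -0.92. *Tap2*, a subunit of the transporter that carries peptides into the endoplasmic reticulum, was at 10.3, 9.97 and 18.4 against 32.1, 26.9 and 31.4 RPKM (log2 fold change -1.22 ± 0.19 (SE), adjusted p = 0.00068). *Tapbp*, which holds MHC class I molecules at that transporter, was at 87.4, 72.6 and 126 against 229, 205 and 236 RPKM (log2 fold change -1.23 ± 0.18 (SE), adjusted p = 0.00052). *Nlrc5*, the transactivator of MHC class I genes, was at 11, 8.31 and 8.67 against 18.52, 23.6 and 21.2 RPKM (log2 fold change -1.18 ± 0.22 (SE), adjusted p = 0.0025). *H2-Q10*, a class I gene, fell as well (log2 fold change -1.33 ± 0.18 (SE), adjusted p = 0.00032). Of 11 MHC class II genes, 2 were called lower, the transactivator *Ciita* (log2 fold change -1.17 ± 0.31 (SE), adjusted p = 0.017) and the peptide exchange subunit *H2-DMb1* (log2 fold change -1.25 ± 0.20 (SE), adjusted p = 0.00086), with a list median of -0.46. *Ciita* was not called without C362A control replicate 2 (-0.94, adjusted p = 0.083) or *Cflar*-/- replicate 1 (-1.03, adjusted p = 0.067), either of which left 1 class II gene called.

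Interferon genes themselves were near their floor in *Cflar*-/- intestines. *Ifng* encodes interferon-γ, the main inducer of GBPs, and was read 0, 1 and 4 times in the *Cflar*-/- libraries and 29, 30 and 35 times in the C362A control libraries (log2 fold change -4.06 ± 0.55 (SE), adjusted p = 0.00034). *Ifnb1* encodes interferon-β and had no read in the former and 4, 8 and 5 in the latter. Against a floor of 3 reads over the group, *Ifnb1* was at least 5.38-fold lower, which covers counting error only. *Ifng* had a log2 fold change of -5.56 without *Cflar*-/- replicate 3. Both interferon genes were low in every library, and levels of this kind rest on few molecules. *Ifnlr1*, the receptor subunit for interferon-λ that epithelial cells express, fell to 5.15, 4.47 and 6.31 from 13.4, 11.5 and 11.9 RPKM (log2 fold change -1.2 ± 0.14 (SE), adjusted p = 0.00016) and was also below the *Mlkl*-/- level of 16.3, 18 and 22. Of 10 interferon and receptor genes tested, 3 were called lower and none higher.

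**Figure D3:**
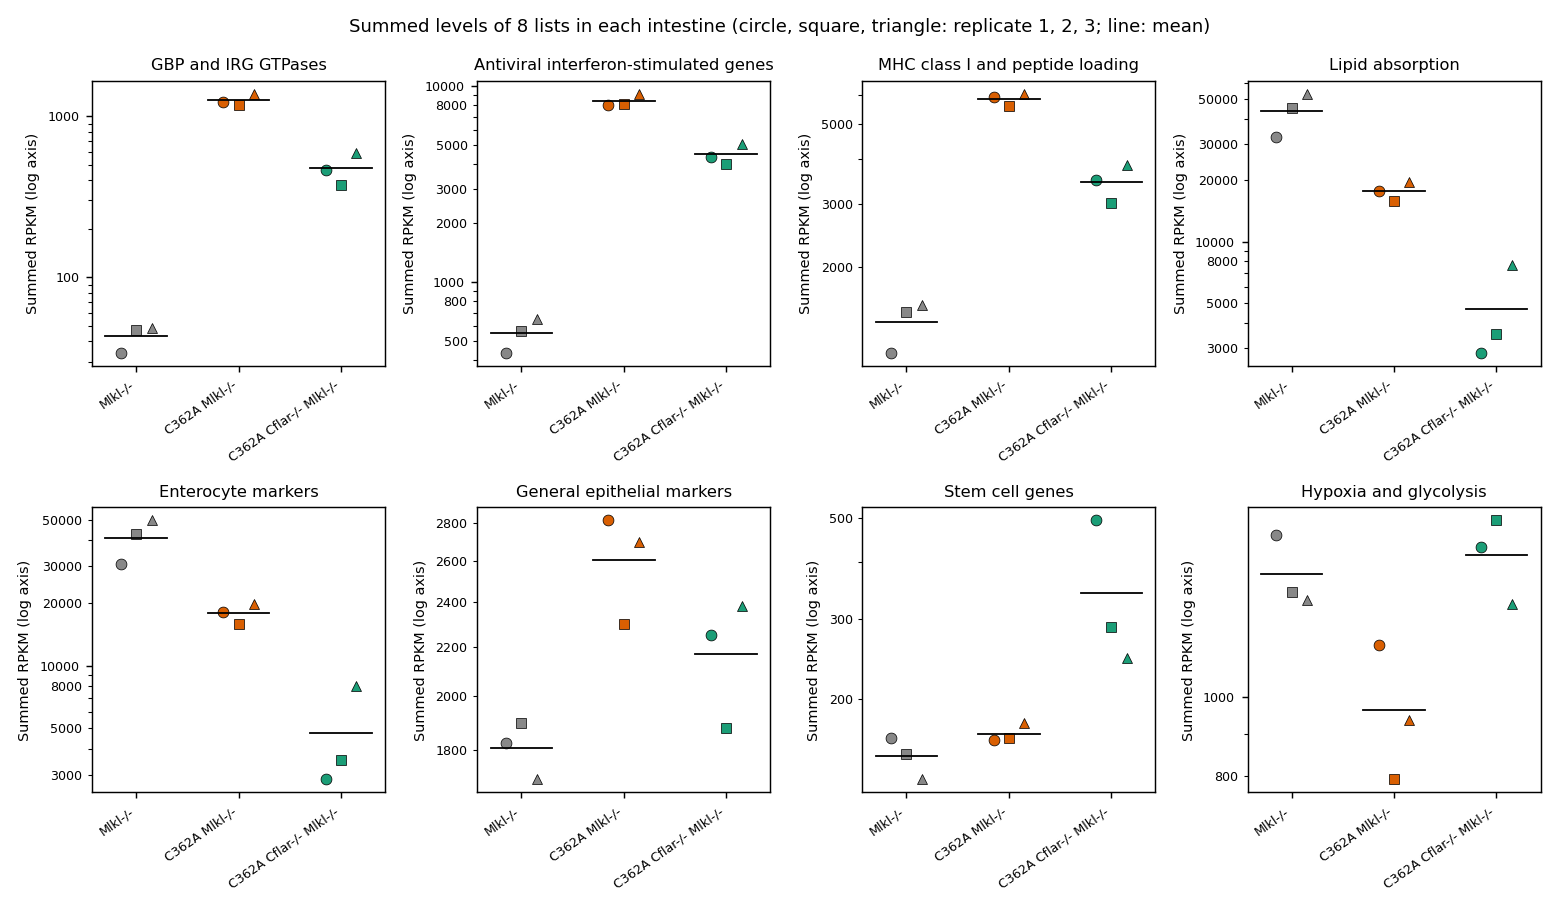
Summed RPKM (log axes) of 8 gene lists in each intestine of 3 genotypes, with symbols for replicates and lines for means. With *Cflar* loss the 3 interferon-linked lists lie between the *Mlkl*-/- and *Casp8* C362A/C362A *Mlkl*-/- levels, lipid absorption and enterocyte markers lie below both, general epithelial markers overlap with *Casp8* C362A/C362A *Mlkl*-/-, and stem cell genes lie above both.

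Chemokines split. Of 32 tested, 8 were called lower and 5 higher, with a median of -0.55. The ligands of CXCR3, the receptor that draws in T and NK cells, were lower. *Cxcl9* was at 12.8, 10.4 and 15.5 RPKM with *Cflar* loss and 71.9, 65.2 and 72 without (log2 fold change -2.44 ± 0.15 (SE), adjusted p = 3e-06), a 5.41-fold difference. *Cxcl11*, annotated as a polymorphic pseudogene, was at 3.7, 1.82 and 2.42 against 5.6, 6.52 and 8.07 RPKM (log2 fold change -1.35 ± 0.23 (SE), adjusted p = 0.0012). *Cxcl10* was at 82.5, 44.7 and 75.2 against 155, 122 and 188 RPKM (log2 fold change -1.2 ± 0.22 (SE), adjusted p = 0.0017), and its log2 fold change was -0.98 without *Cflar*-/- replicate 2. The T cell and macrophage chemoattractants *Ccl5* (11.8, 13.2 and 13.5 against 32.5, 41 and 46.1 RPKM, log2 fold change -1.64 ± 0.22 (SE), adjusted p = 0.00029) and *Ccl3* (log2 fold change -1.95 ± 0.28 (SE), adjusted p = 0.00042) fell as well. Ligands that draw in neutrophils and monocytes did not move one way. *Cxcl1* was at 39.1, 19.2 and 8.52 against 7.1, 6.58 and 8.84 RPKM (log2 fold change 1.57 ± 0.41 (SE), adjusted p = 0.016), and replicate 3 lay within the range of the other group. *Ppbp*, a neutrophil chemoattractant of platelets, rose from a low level (0.709, 0.41 and 0.54 against 0.1, 0.263 and 0.1 RPKM, log2 fold change 1.8 ± 0.55 (SE), adjusted p = 0.035). *Cxcl2* fell (log2 fold change -1.07 ± 0.26 (SE), adjusted p = 0.0099), and *Cxcl5* (0.44 ± 0.31, adjusted p = 0.36), *Ccl2* (0.51 ± 0.25, adjusted p = 0.18), *Ccl7* (0.99 ± 0.34, adjusted p = 0.055) and *Ccl22* (-0.82 ± 0.33, adjusted p = 0.098) were not called. Without *Cflar*-/- replicate 1 no chemokine was called higher, and *Cxcl1* had a log2 fold change of 0.88 (adjusted p = 0.1). Leaving out any of the C362A control libraries or *Cflar*-/- replicate 2 left 2 or 3 called higher, and *Cxcl1* was not among them without C362A control replicate 1 (adjusted p = 0.06) or 2 (adjusted p = 0.064). Without *Cflar*-/- replicate 3, *Ccl7* was called higher (1.33, adjusted p = 0.0013). *Ppbp* was not called without C362A control replicate 1 (adjusted p = 0.12) or 3 (0.14) or *Cflar*-/- replicate 1 (0.11) or 2 (0.051). *Cxcl2* was not called without C362A control replicate 2 (-0.83) or *Cflar*-/- replicate 3 (-0.90).

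Among inflammatory cytokines, *Il1a*, an alarmin of epithelial cells, was at 1.35, 1.67 and 7.83 RPKM with *Cflar* loss and 20.7, 15.7 and 25 without (log2 fold change -2.49 ± 0.46 (SE), adjusted p = 0.0021), which placed 2 of the 3 *Cflar*-/- libraries below the *Mlkl*-/- level of 5.53, 6.48 and 6.51. Without replicate 3 the log2 fold change of *Il1a* was -3.76. *Tslp*, another epithelial cytokine, fell to 3.17, 2.97 and 3.03 from 7.88, 8.27 and 9.79 RPKM (log2 fold change -1.5 ± 0.19 (SE), adjusted p = 0.00022). *Il27*, made by myeloid cells, fell too (log2 fold change -1.34 ± 0.31 (SE), adjusted p = 0.0088). *Il1b* was at 66.2, 40.1 and 30.0 against 44.1, 43.5 and 47.6 RPKM and *Tnf* at 7.27, 4.67 and 3.7 against 4.72, 6.74 and 5.95, and both overlapped between the groups with fold changes near 0 (0.01 ± 0.26, adjusted p = 0.98 and -0.16 ± 0.29, adjusted p = 0.76). *Il6* was at 7.89, 1.13 and 0.226 RPKM in the *Cflar*-/- embryos against 0.462, 0.543 and 0.372 (log2 fold change 2.73 ± 0.86 (SE), adjusted p = 0.038), so its call rests on replicate 1. Without that library the log2 fold change of *Il6* was 0.55 (adjusted p = 0.59), and limma-voom gave 1.42 (adjusted p = 0.35). The adjusted p was 0.076 with DESeq2, 0.053 with sex as a term and 0.07 with only the groups compared. It was not called without any of the C362A control libraries either (adjusted p = 0.11, 0.092 and 0.13). Of 22 cytokines tested, 4 were called lower and *Il6* alone higher, and 2 were higher without *Cflar*-/- replicate 3.

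Leukocyte markers bear on where such transcripts come from, and in bulk RNA fewer cells of a type and less RNA per cell cannot be told apart. Of 20 macrophage and monocyte markers 3 were called lower, *Ly6c2* of inflammatory monocytes (1.77, 1.75 and 2.23 against 12.4, 10.7 and 8.54 RPKM, log2 fold change -2.46 ± 0.21 (SE), adjusted p = 3.3e-05), the growth factor receptor *Csf1r* (12.4, 17.2 and 23.1 against 47.9, 40.9 and 49.8 RPKM, log2 fold change -1.39 ± 0.18 (SE), adjusted p = 0.00025) and *Ccr2* (log2 fold change -1.01 ± 0.21 (SE), adjusted p = 0.0049). Their summed level was 711, 788 and 548 RPKM with *Cflar* loss and 803, 823 and 793 without, a small difference beside that of *Ly6c2*. Neutrophil markers summed to 543, 508 and 338 against 625, 744 and 773 RPKM, with 3 of 13 called lower, the granule protein *Ltf* (log2 fold change -1.74 ± 0.39 (SE), adjusted p = 0.0068), the formyl peptide receptor *Fpr1* (log2 fold change -1.14 ± 0.25 (SE), adjusted p = 0.0055) and the receptor *Csf3r* (log2 fold change -1.06 ± 0.20 (SE), adjusted p = 0.0027). Of 19 T and NK cell markers tested, *Klrk1* alone was called (log2 fold change -1.01 ± 0.30 (SE), adjusted p = 0.029), and the summed levels were 76, 75.8 and 55.6 against 83.9, 76.7 and 76 RPKM. The cytotoxic granule genes *Gzmb* (-0.37 ± 0.19, adjusted p = 0.21) and *Prf1* (0.58 ± 0.31, adjusted p = 0.22) overlapped between the groups, and the defining T cell genes *Cd3d* and *Cd3e* were too low to test. *Ltf* had a log2 fold change of -2.67 without *Cflar*-/- replicate 3. *Ccr2* was not called without C362A control replicate 2 (-0.76) or *Cflar*-/- replicate 1 (-0.82). *Csf3r* was not called without those libraries (-0.94 and -0.95) or C362A control replicate 3 (-0.94). *Klrk1* kept its call without *Cflar*-/- replicate 3 and lost it without any of the other 5 libraries, with adjusted p from 0.067 to 0.086. Close to the 2-fold threshold, *Klrk1* was also not called without a filter (-0.99), with a mean of at least 50 reads (-1), with a prior count of 2 (-0.99) or with only the groups compared (-0.96), and *Ccr2* not without a filter (-0.99), with sex as a term (-0.99) or with only the groups compared (-0.97). The part of these markers in the lower interferon response was not tested.

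In the cell death machinery, most genes changed by less than 2-fold. Of 22 death receptor and necroptosis genes 3 were called lower and none higher, with a median of -0.35. *Zbp1*, a sensor of Z-nucleic acids that engages RIPK3, was at 71.2, 59.4 and 68.1 against 134, 133 and 140.1 RPKM (log2 fold change -1.03 ± 0.21 (SE), adjusted p = 0.004), and *Tnfsf10*, the death ligand TRAIL, at 10.4, 6.97 and 13.6 against 18.9, 21.6 and 25.5 (log2 fold change -1.09 ± 0.22 (SE), adjusted p = 0.0038). *Zbp1* and *Tnfsf10* lost their call, leaving 1 gene called in the list, without *Cflar*-/- replicate 2 (-0.96 and -0.87), and *Tnfsf10* also without C362A control replicate 3 (-0.97). *Zbp1* was at -0.99 in the fit of only the groups compared. Falls under 2-fold passed the adjusted p in the receptor *Tnfrsf1a* (-0.53 ± 0.12, adjusted p = 0.0067), its adaptor *Tradd* (-0.43 ± 0.09, adjusted p = 0.0045), the kinase *Ripk1* (-0.56 ± 0.13, adjusted p = 0.0099), the BH3 protein *Bid* (-0.74 ± 0.15, adjusted p = 0.0035) and the pore protein *Bak1* (-0.41 ± 0.13, adjusted p = 0.045). The adaptor *Fadd* (-0.08 ± 0.11, adjusted p = 0.69) and the kinase *Ripk3* (-0.20 ± 0.11, adjusted p = 0.23) overlapped between the groups, as did *Fas* (-0.49 ± 0.24, adjusted p = 0.17) and the ubiquitin ligases *Birc2* (-0.09 ± 0.14, adjusted p = 0.71) and *Birc3* (0.12 ± 0.12, adjusted p = 0.53). The deubiquitinase genes *Cyld* (-0.16 ± 0.11, adjusted p = 0.31) and *Tnfaip3* (-0.18 ± 0.12, adjusted p = 0.3), the signaling adaptor *Traf2* (-0.12 ± 0.10, adjusted p = 0.47) and the TRAIL receptor *Tnfrsf10b* (0.36 ± 0.16, adjusted p = 0.13) were not called.

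Of 22 inflammasome and pyroptosis genes 5 were called lower and none higher, and 12 passed the adjusted p as lower. The 5 were 4 gasdermins and *Naip5*, a sensor of bacterial flagellin (log2 fold change -1.1 ± 0.16 (SE)). The epithelial gasdermins *Gsdmc2* (25.5, 13.2 and 13.3 against 32.2, 45.2 and 54.4 RPKM, log2 fold change -1.34 ± 0.29 (SE), adjusted p = 0.0049), *Gsdmc3* (log2 fold change -1.46 ± 0.32 (SE), adjusted p = 0.0064) and *Gsdmc4* (log2 fold change -1.35 ± 0.20 (SE), adjusted p = 0.0005) are close copies, and reads that match several copies are absent from unique alignments, which leaves their single values uncertain. All 3 remained far above the *Mlkl*-/- level, which was 0.0795, 0.253 and 0.395 RPKM for *Gsdmc2*. *Gsdme*, another pore-forming gasdermin, was at 1.07, 1.64 and 3.43 against 5.05, 4.95 and 4.93 RPKM (log2 fold change -1.28 ± 0.30 (SE), adjusted p = 0.0081), and its log2 fold change was -0.97 without *Cflar*-/- replicate 1 and -1.88 without replicate 3. No gene was called in the list of 21 NF-κB components and targets, where 5 passed the adjusted p alone (4 lower and 1 higher) and 1 was called lower without C362A control replicate 2 or *Cflar*-/- replicate 1, nor in the list of 21 *Bcl2* family and p53 target genes, where 6 did, all lower. *Nfkbia*, the feedback inhibitor of NF-κB, was at 123, 97.5 and 98.9 against 94.6, 80.6 and 90.7 RPKM (0.26 ± 0.14, adjusted p = 0.2), and *Icam1* fell by under 2-fold (-0.75 ± 0.10, adjusted p = 0.00036).

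The enterocyte program was the other main loss. Of 12 markers of absorptive enterocytes 10 were called lower, with a median of -1.59, and they summed to 2849.5, 3513 and 7971 RPKM with *Cflar* loss against 18015, 15804 and 19653 without and 30532, 42645 and 49515 in *Mlkl*-/- intestines. General epithelial markers moved less. None of 9 was called, with a median of -0.21, and their sums overlapped (2252, 1879.8 and 2383 against 2815, 2301 and 2698 RPKM). *Epcam* was at 674, 540.1 and 726 against 915, 859.7 and 925 RPKM (log2 fold change -0.48 ± 0.17 (SE), adjusted p = 0.06). Without *Cflar*-/- replicate 3, which held the highest enterocyte sum of its group, the enterocyte median was -2.

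Brush border enzymes fell in 13 of 20 genes, with a median of -1.29. *Lct*, the lactase that digests milk sugar, was at 0.661, 0.497 and 5.18 RPKM with *Cflar* loss and 19.8, 11.7 and 23.3 without (log2 fold change -3.11 ± 0.64 (SE), adjusted p = 0.0041), against 243, 313 and 259 in *Mlkl*-/- intestines. *Ace*, a peptidase, was at 10.4, 16.7 and 77.3 against 208, 151 and 203 RPKM (log2 fold change -2.43 ± 0.53 (SE), adjusted p = 0.0059). In both the third *Cflar*-/- embryo was well above the other two and still below every C362A control embryo. *Naaladl1*, also a peptidase, fell as well (log2 fold change -2.0 ± 0.34 (SE), adjusted p = 0.0012). *Tmprss15*, the enteropeptidase that activates trypsinogen, had no read in the *Cflar*-/- libraries and 7, 4 and 20 in the others, at least 9.81-fold lower against a floor of 3 reads over the group. *Lct*, *Ace* and *Naaladl1* had log2 fold changes of -4.99, -3.79 and -2.68 without *Cflar*-/- replicate 3. The call for *Tmprss15* was lost without C362A control replicate 3 (adjusted p = 0.06) or *Cflar*-/- replicate 2 (adjusted p = 0.051).

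Genes that absorb and export fat fell in 14 of 21 cases, with a median of -1.22. *Apoa4*, an apolipoprotein of chylomicrons, was at 710.4, 1091 and 2635 RPKM with *Cflar* loss, 6009, 5506 and 6699.8 without and 11025, 15385 and 17453 in *Mlkl*-/- intestines (log2 fold change -2.04 ± 0.42 (SE), adjusted p = 0.0043). *Apoc3*, which slows the clearance of those particles, was at 45.6, 69 and 184 against 551, 569.5 and 660.0 RPKM (log2 fold change -2.58 ± 0.42 (SE), adjusted p = 0.00088). The fatty acid-binding proteins *Fabp1* (166, 102 and 157 against 764, 542 and 918 RPKM, log2 fold change -2.39 ± 0.27 (SE), adjusted p = 0.00015) and *Fabp2* (209, 229 and 505 against 1658, 1455 and 1965 RPKM, log2 fold change -2.43 ± 0.36 (SE), adjusted p = 0.0005) fell about as far. *Apoa4* and *Apoc3* had log2 fold changes of -2.76 and -3.38 without *Cflar*-/- replicate 3. The count of 14 was 9 without C362A control replicate 3 and also 9 without *Cflar*-/- replicate 2.

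Of 20 nutrient transporters 7 were called lower. *Slc2a2*, the facilitative transporter that lets glucose and fructose out of enterocytes, was at 0.00726, 0.0597 and 0.0525 against 0.695, 0.179 and 0.688 RPKM (log2 fold change -3.65 ± 0.57 (SE), adjusted p = 0.00071), from 24.3, 28.5 and 27.1 in *Mlkl*-/- intestines. The neutral amino acid transporter *Slc6a19* was at 3.56, 3.53 and 9.32 against 23.5, 26.5 and 26.8 RPKM (log2 fold change -2.23 ± 0.30 (SE), adjusted p = 0.0003), and the phosphate transporter *Slc34a2* (log2 fold change -2.08 ± 0.40 (SE), adjusted p = 0.0027) and the cystine transporter subunit *Slc3a1* (log2 fold change -1.59 ± 0.25 (SE), adjusted p = 0.00072) fell too. *Slc23a1*, which takes up vitamin C, was among the 10 largest falls of the comparison (0.107, 0.171 and 0.737 against 4.63, 2.71 and 4.62 RPKM, log2 fold change -3.53 ± 0.41 (SE), adjusted p = 0.00015). *Slc6a19*, *Slc34a2* and *Slc23a1* had log2 fold changes of -2.86, -3.07 and -4.82 without *Cflar*-/- replicate 3.

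Bile acid genes of the ileum included the largest fall among called genes without overlap and with a mean of at least 1 CPM. *Fgf15*, the hormone that ileal cells release to restrain bile acid synthesis in the liver, was read 0, 1 and 1 times in the *Cflar*-/- libraries and 116, 39 and 164 times in the C362A control libraries. Scaled by library size that is a ratio of 151, with a 95% interval for counting error of 41.6 to 1256 (log2 fold change -7.0 ± 0.94 (SE), adjusted p = 0.00031). *Mlkl*-/- intestines were at 1.2, 4.64 and 1.95 RPKM, which overlapped with the 2.32, 0.767 and 3.28 of C362A control intestines. *Fabp6*, which carries bile acids inside ileal cells, was at 14.3, 14.7 and 10.9 against 187, 132 and 159.9 RPKM (log2 fold change -3.58 ± 0.30 (SE), adjusted p = 3.3e-05). It stood above its *Mlkl*-/- level (16.2, 30.8 and 40.1 RPKM) in C362A control intestines and below the mean of that level with *Cflar* loss (log2 fold change -1.12, adjusted p = 0.0051). *Cubn*, a receptor for vitamin B12 uptake, fell (log2 fold change -1.78 ± 0.33 (SE), adjusted p = 0.0023), and *Nr0b2*, a repressor induced by bile acids, was called on few reads (log2 fold change -1.73 ± 0.55 (SE), adjusted p = 0.04). *Cubn* had a log2 fold change of -2.44 without *Cflar*-/- replicate 3. *Nr0b2* was not called without C362A control replicate 1 (adjusted p = 0.14) or 3 (0.12), or without *Cflar*-/- replicate 2 (0.13) or 3 (0.093), nor with sex as a term (0.053) or limma-voom (0.14). In this list 6 of 10 genes were called lower and none higher, with a median of -1.41.

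Intestinal stem cell genes rose in part. *Lgr5*, a receptor that marks intestinal stem cells, rose to 5.33, 4.49 and 4.74 from 1.73, 2.4 and 1.9 RPKM (log2 fold change 1.27 ± 0.16 (SE), adjusted p = 0.00025), and *Olfm4*, another stem cell gene, to 291, 104 and 62 from 31.6, 29.4 and 49.2 (log2 fold change 2.05 ± 0.41 (SE), adjusted p = 0.0033). The log2 fold change of *Olfm4* was 1.17 without *Cflar*-/- replicate 1. Of 14 stem cell genes these 2 were called, and 4 were without *Cflar*-/- replicate 3. No gene was called among 25 of the cell cycle, of which 11 passed the adjusted p as higher with changes under 2-fold and 1 as lower. None was called among 14 goblet cell genes, 17 enteroendocrine genes and 15 genes of fetal-like regenerative epithelium, although 2 of the last were higher without *Cflar*-/- replicate 1 and 1 without C362A control replicate 2. Summed levels of goblet cell genes were 6510.5, 5798 and 4401 RPKM with *Cflar* loss and 5020.3, 5239.7 and 5111 without, and *Tff3*, a goblet cell peptide, overlapped (0.22 ± 0.26, adjusted p = 0.62).

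Some epithelial defense genes rose from an already high level. Of 24 genes 5 were called higher and 2 lower, with a median of 0.55. *Reg3g*, a lectin that kills Gram-positive bacteria, was at 5786, 4579.7 and 3783 RPKM with *Cflar* loss, 1518, 1661 and 1708 without and 2.29, 3.3 and 5.88 in *Mlkl*-/- intestines (log2 fold change 1.53 ± 0.28 (SE), adjusted p = 0.002). *Reg3b* is a close copy of *Reg3g*, so the level of *Reg3g* is uncertain in the same way. *Nox1*, the NADPH oxidase of colon epithelium, was at 8.39, 3.92 and 3.55 against 1.88, 1.54 and 1.47 RPKM (log2 fold change 1.7 ± 0.35 (SE), adjusted p = 0.004), and *Nos2*, which makes nitric oxide, overlapped (0.36 ± 0.20, adjusted p = 0.24). *Acod1*, which makes itaconate in activated myeloid cells, fell to 1.16, 1.34 and 1.62 from 7.16, 7.63 and 9.7 RPKM (log2 fold change -2.57 ± 0.23 (SE), adjusted p = 4e-05). *Leap2*, a hormone that opposes ghrelin, fell further from a level that was already low (1.07, 0.835 and 0.826 against 6.2, 4.43 and 6.81 RPKM, log2 fold change -2.67 ± 0.56 (SE), adjusted p = 0.0048), with 119, 262 and 477 in *Mlkl*-/- intestines, and limma-voom gave it an adjusted p of 0.056.

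Hypoxia and glycolysis was the list with the highest median, 0.74, and all 15 genes had a fold change above 0. The 5 called higher included *Adm*, a vasodilator peptide, at 12.6, 48.9 and 24 against 8.9, 4.79 and 5.64 RPKM (log2 fold change 2.14 ± 0.37 (SE), adjusted p = 0.0014), with a log2 fold change of 1.51 without *Cflar*-/- replicate 2. *Car9*, a carbonic anhydrase on the cell surface, was at 73, 54.4 and 42.6 against 23.9, 21.3 and 23.4 RPKM (log2 fold change 1.31 ± 0.17 (SE), adjusted p = 0.00022), and *Bnip3*, a receptor for mitophagy, at 5.36, 6.99 and 4.57 against 2.46, 1.84 and 2.79 (log2 fold change 1.26 ± 0.22 (SE), adjusted p = 0.0015). *Ndrg1*, a stress-responsive gene, was at 216, 234 and 144 against 139, 59.2 and 78.7 RPKM (log2 fold change 1.11 ± 0.28 (SE), adjusted p = 0.013), well under its *Mlkl*-/- level of 782, 596 and 555, and lost its call without C362A control replicate 2 (0.87) or 3 (adjusted p = 0.071) or *Cflar*-/- replicate 2 (0.97). Letters of the hypoxia response element (TACGTG, both strands) were in 2 of 14 windows of this list (14.3%) and in 4.21% of windows of all tested genes.

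Some targets of the amino acid response rose. *Trib3*, a pseudokinase induced by ATF4, was at 7.9, 7.77 and 5.63 against 2.77, 1.88 and 2.3 RPKM (log2 fold change 1.61 ± 0.22 (SE), adjusted p = 0.00035). *Psat1*, of serine synthesis, was at 72.5, 76 and 61 against 32.2, 31.6 and 29.7 RPKM (log2 fold change 1.16 ± 0.17 (SE), adjusted p = 0.00057) and *Asns*, which makes asparagine, at 54.2, 59.1 and 57.7 against 31.5, 23.6 and 25 (log2 fold change 1.09 ± 0.22 (SE), adjusted p = 0.0038). *Chac1*, which degrades glutathione, rose less evenly (log2 fold change 1.3 ± 0.33 (SE), adjusted p = 0.013) and lost its call without C362A control replicate 3 (1.14, adjusted p = 0.068) or *Cflar*-/- replicate 1 (0.96, adjusted p = 0.065). The whole list of unfolded protein and amino acid genes had 4 of 17 called higher, a median of 0, and 1 called lower, *Ddit3*, chosen for mention after its value was seen. The count of genes called lower ran from 0 (without *Cflar*-/- replicate 1) to 3 (without C362A control replicate 2).

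The largest rises were scattered over functions. *Nppb*, the natriuretic peptide BNP, was at 3.93, 3.74 and 0.562 RPKM with *Cflar* loss and 0, 0.182 and 0.139 without, on 167 against 7 reads (log2 fold change 4.59 ± 0.78 (SE), adjusted p = 0.0013). Its log2 fold change was 5.18 without C362A control replicate 2. The metallothioneins *Mt2* (329.8, 210.3 and 66.4 against 26.1, 16.1 and 22.9 RPKM, log2 fold change 3.22 ± 0.58 (SE), adjusted p = 0.0017) and *Mt1* (324, 248 and 107 against 58.1, 33.1 and 42.3 RPKM, log2 fold change 2.35 ± 0.38 (SE), adjusted p = 0.00098) bind zinc and copper. *Mt1* was close to its *Mlkl*-/- level of 327, 169 and 379 RPKM with *Cflar* loss and below it without. *Gp2*, a receptor for bacteria on M cells that pancreatic acinar cells also make (log2 fold change 2.96 ± 0.63 (SE), adjusted p = 0.0068), the epidermal lipoxygenase *Alox12b* (log2 fold change 2.87 ± 0.47 (SE), adjusted p = 0.0009) and the glial filament gene *Gfap* (log2 fold change 2.8 ± 0.55 (SE), adjusted p = 0.0029) rose from low levels. *Gp2* was highest in *Cflar*-/- replicate 2 (1.42, 4.42 and 0.531 against 0.253, 0.267 and 0.289 RPKM) and *Gfap* in replicate 1 (4.65, 1.39 and 0.637 against 0.204, 0.394 and 0.355 RPKM), and without those libraries the log2 fold changes were 1.83 and 1.67. Summed pancreatic acinar markers had the same order as *Gp2* in the *Cflar*-/- embryos (115, 354 and 43.5 RPKM). The part of pancreatic tissue in the rise of *Gp2* was not tested. In the matrix list the protease *Mmp7*, which activates antimicrobial peptides, rose to 309, 208 and 112 from 63.2, 84.3 and 71.3 RPKM (log2 fold change 1.52 ± 0.33 (SE), adjusted p = 0.0055), and the protease inhibitor *Timp1* rose on replicate 1 (log2 fold change 1.11 ± 0.28 (SE), adjusted p = 0.013, with 0.65 without that library and an adjusted p of 0.059 without C362A control replicate 3). *Mmp9* rose by under 2-fold (0.62 ± 0.18, adjusted p = 0.029), and *Mmp12* overlapped (0.28 ± 0.22, adjusted p = 0.41).

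Other large falls were in genes outside the lists. *Acot3*, an acyl-CoA thioesterase of peroxisomes, was at 0.0118, 0.0323 and 0.0532 RPKM with *Cflar* loss, 0.863, 0.28 and 0.725 without and 12.4, 13.8 and 12.5 in *Mlkl*-/- intestines (log2 fold change -4.18 ± 0.48 (SE), adjusted p = 0.00015). *Dnase1*, an extracellular nuclease (log2 fold change -3.6 ± 0.63 (SE), adjusted p = 0.0016), *Smcp*, known from sperm mitochondria (0.708, 1.54 and 5.17 against 29.9, 27.3 and 33.9 RPKM, log2 fold change -3.6 ± 0.42 (SE), adjusted p = 0.00016), and *Igfn1* (log2 fold change -4.86 ± 0.49 (SE), adjusted p = 8.2e-05) also fell. *Dnase1*, *Smcp* and *Igfn1* had log2 fold changes of -4.8, -4.74 and -6.82 without *Cflar*-/- replicate 3. *Acot3* was also called lower in C362A control than in *Mlkl*-/- intestines (log2 fold change -4.37), while *Dnase1* overlapped between those groups and was not called (-1.03, adjusted p = 0.074).

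Markers of other tissues moved as well, some of them in single embryos. Of 11 pancreatic acinar genes tested 3 were called higher, and the list summed to 115, 354 and 43.5 RPKM with *Cflar* loss and 55.8, 37.3 and 78.5 without, so replicate 2 held most of it and the groups overlapped. Its median of 2.17 was 0.47 without that library, with none called. None was called without C362A control replicate 1 or 2 either, and 9 were without *Cflar*-/- replicate 3. Smooth muscle markers summed to 3556, 4205 and 3441 against 2580.2, 1919 and 1847 RPKM, and of 10 the contractile gene *Tagln* was called (log2 fold change 1.3 ± 0.26 (SE), adjusted p = 0.0035). The mast cell proteases *Mcpt1* (log2 fold change 1.1 ± 0.25 (SE), adjusted p = 0.0071) and *Mcpt2* (log2 fold change 1.05 ± 0.27 (SE), adjusted p = 0.016) rose, and neither was called without C362A control replicate 1 (0.88 and 0.74), nor *Mcpt2* without *Cflar*-/- replicate 2 (0.96). Of 10 liver genes 2 were called lower and 1 higher, with a median of -0.59. Those lower were *Afp* (5.56, 37.4 and 71.7 against 284, 229 and 214 RPKM, log2 fold change -2.66 ± 0.58 (SE), adjusted p = 0.0059) and *Ttr* (log2 fold change -2.32 ± 0.37 (SE), adjusted p = 0.00084), which fetal liver and yolk sac make. *Ahsg*, a plasma protein of the liver, was called higher with overlapping libraries (log2 fold change 5.6 ± 1.9 (SE), adjusted p = 0.049). No liver gene was called higher without any 1 of the C362A control libraries or *Cflar*-/- replicate 2, and 2 were without *Cflar*-/- replicate 1 or 3. Without *Cflar*-/- replicate 2 the list had 4 genes called lower and a median of -1.93, and without replicate 3 the log2 fold change of *Afp* was -3.5. Markers of enteric neurons, fibroblasts, endothelium, mesothelium, Cajal cells, B cells, erythroid cells, islets and stomach had no gene called. The part of these markers in the changes above was not tested.

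*Cflar* loss could also be compared between *Casp8* alleles, since the D387A and C362A arms share no library. The D387A arm loses *Mlkl* together with *Cflar*, because *Casp8* D387A/D387A embryos have intact *Mlkl*. Its *Cflar* deletion also differs from that of the C362A line. In that arm 23.9% of 19643 genes were called (10.3% higher and 13.5% lower). The change differed between the alleles in 3413 genes (17.4%, with 9.34% higher and 8.04% lower in the C362A arm), by an interaction contrast over the 30 intestine libraries. Among 19289 genes tested in both fits, 657 were called the same way, 525 lower and 132 higher. These 525 were 59.0% of the genes called lower in the C362A arm and 20.3% of those called lower in the D387A arm. Another 154 genes, 17.3% of those called lower in the C362A arm and 7.7% of those called higher in the D387A arm, went opposite ways with the difference called.

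Among the named genes 28 went opposite ways with the difference called, and they included chemokines, GBPs, antiviral genes and genes of leukocytes and epithelium. *Cxcl9* fell by 2.44 on the log2 scale in the C362A arm and rose by 8.32 in the D387A arm, from 0.0429, 0.0878 and 0.109 to 31.7, 17.4 and 33.4 RPKM (difference -10.75 ± 0.51, adjusted p = 1.4e-13). All 17 GBP and IRG genes were called lower in the C362A arm, all 17 were called higher in the D387A arm, with a median of 2.82, and the difference was called in all 17. *Gbp2* rose from 2.76, 3.58 and 3.35 to 63.5, 40.9 and 74.4 RPKM in the D387A arm. The starting levels were unlike, since *Gbp2* stood at 125, 88.1 and 103 RPKM in C362A control intestines before *Cflar* was lost. Of the 12 enterocyte markers 10 were called lower in the C362A arm and 9 in the D387A arm. *Fabp1* went from 7413, 7249 and 6766 to 38.1, 38.4 and 34.9 RPKM in the D387A arm, a log2 fold change of -7.59 against -2.39 in the C362A arm (difference 5.21 ± 0.32, adjusted p = 1.2e-11). *Lgr5* rose in both arms (1.27 and 1.49), and its difference was not called (-0.22 ± 0.29, adjusted p = 0.61). *Ndrg1* fell in the D387A arm (-1.23) and rose in the C362A arm (difference 2.35 ± 0.41, adjusted p = 5e-05).

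**Figure D4:**
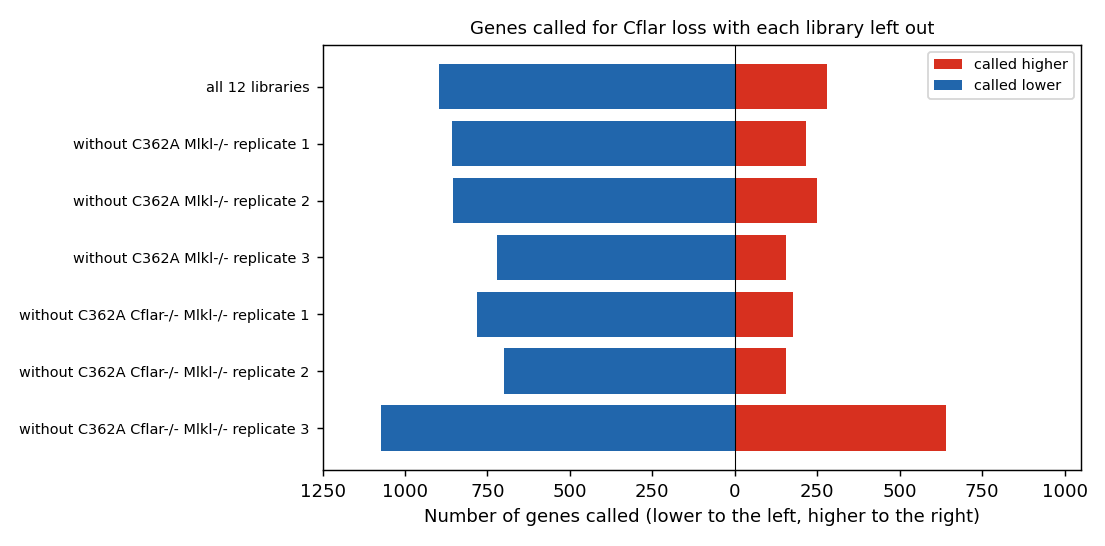
Number of genes called lower (bars to the left) and higher (bars to the right) with *Cflar* loss in the fit of all 12 libraries and with each of the 6 compared libraries left out. Falls outnumber rises in every fit, with 700 to 1072 lower against 154 to 641 higher, and the count of rises moves most with replicate 3 of *Casp8* C362A/C362A *Cflar*-/- *Mlkl*-/-.

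Rises were the less stable side. Leaving out a library gave 154 (C362A control replicate 3) to 641 genes called higher (*Cflar*-/- replicate 3), against 281 in all libraries, and 156 and 178 without replicates 2 and 1 of *Cflar*-/-. Genes called lower numbered 700 to 1072, against 896. Of the genes called higher 57 were processed pseudogenes, against 17 of those called lower, and reads on these can be uncertain because of their parent genes.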

How the data were processed

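Whole intestines of 6 embryos were compared, within a set of 12 intestines of 4 genotypes with 3 embryos each. The set also holds *Casp8* C362A/C362A *Mlkl*-/- *Casp1*-/- intestines, which served only in the fits. Genotypes and replicate numbers were taken from the sample labels, which mark the replicates as biological. The deposited counts are whole reads per gene, not normalized, which the authors made from unique GSNAP alignments to GRCm38 (mm10). The counting program, its annotation and its strand setting are not given in the sources used here. The labels and the methods name different library kits, one of which marks strand, so overlapping and antisense genes are uncertain. The authors also deposited RPKM and gene widths. RPKM printed here was computed from the deposited counts and widths on TMM-scaled library sizes.

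Of 52636 genes in each file 52489 matched GENCODE M21. The 12 libraries entered a single quasi-likelihood fit in edgeR 4.0.16 under R 4.3.3, with TMM scaling, filterByExpr (count of at least 10, total of at least 15), a prior count of 0.125 and Benjamini-Hochberg adjustment over 19408 genes. The difference between alleles was an interaction contrast over 30 intestine libraries and 19643 genes. The standard error is the fold change divided by the root of the F statistic. The biological coefficient of variation was 0.162. Pairs of libraries of a genotype differed by 8.51 to 68.9 times Poisson noise, so none was a copy. The fit was tested on simulated counts first. Intervals and floors cover counting error only.

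The comparison and the gene lists were chosen with earlier results of these data known. Named genes are the targeted genes, the death receptor list, genes that the study names for its intestine RNA-seq, the 10 largest rises and 10 largest falls among called genes without overlap and with a mean of at least 1 CPM, and up to 4 called members without overlap in each list (otherwise its most abundant member). Other named genes were chosen after their values were seen, and some genes that the rule names are not reported here. RefSeq start windows were found for 12890 of the 19408 tested genes. Alternatives tried were DESeq2 1.42.0, limma-voom (limma 3.58.1), relative log expression scaling, other filters and prior counts, the sex of the embryo, the replicate number as a block, a fit of only the groups compared, and each library left out.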

Additional observations from a re-analysis of the deposited data

Results flagged for a closer look

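The effect of *Cflar* loss differed between *Casp8* alleles in 3413 genes by the interaction contrast, with 1834 differences above 0 (C362A minus D387A) and 1579 below 0. A total of 28 named genes are listed because they were called in opposite directions in the arms and the difference itself was called. The D387A arm loses *Mlkl* with *Cflar* and starts from *Casp8* D387A/D387A embryos. Its *Cflar* deletion is another than that of the C362A line, and the labels of its groups carry different prefixes. The allele, *Mlkl*, the *Cflar* deletion, the starting level and any difference between sets of embryos cannot be told apart here.

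Chemokines had differences of log2 fold changes (C362A minus D387A) of -10.75 for *Cxcl9*, -9.28 for *Cxcl2*, -7.53 for *Cxcl10*, -7.18 for *Cxcl11*, -5.15 for *Ccl3* and -4.89 for *Ccl5*. GBPs differed by -9.98 for *Gbp10*, -6.07 for *Gbp2*, -5.12 for *Gbp4* and -4.92 for *Gbp11*. Antiviral and antigen presentation genes differed by -4.97 in *Nlrc5*, -4.67 in *Ifit1bl1*, -4.48 in *Zbp1*, -4.09 in *Ifit2*, -3.87 in *Mx1*, -3.62 in *Isg20* and -3.27 in *Herc6*. Myeloid and lymphoid genes differed by -8.16 in *Acod1*, -4.77 in *Fpr1*, -4.39 in *Ly6c2*, -2.92 in *Csf3r*, -2.84 in *Il27* and -2.6 in *Klrk1*. Epithelial genes differed by -3.38 in *Gsdmc2*, -2.64 in *Gsdmc4* and -3.11 in *Tslp*. *Cyp2c65*, a cytochrome P450 of the gut, and *Ndrg1* went the other way, higher in the C362A arm and lower in the D387A arm, with differences of 2.86 and 2.35.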

How the results depend on the processing

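The *Cflar* count stayed within 1.5 times 1177 under every alternative run, at 1105 with limma-voom (204 higher, 901 lower), 1173 with DESeq2, 1173 with relative log expression scaling, 1263 without a filter, 861 with a mean of at least 50 reads, 1140 with a prior count of 2, 1166 with sex as a term and 1007 with only the groups compared. Leaving out a library gave 856 to 1713 for *Cflar* loss, 3202 to 3697 for *Casp8* C362A/C362A *Mlkl*-/- against *Mlkl*-/-, 4584 to 5244 for *Casp8* C362A/C362A *Cflar*-/- *Mlkl*-/- against *Mlkl*-/- and 3163 to 3815 for the difference between alleles. Genes called higher, 281 in all libraries, numbered 371 without a filter and 168 with a mean of at least 50 reads. Rises were 23.9% of calls in all libraries and 37.4% without *Casp8* C362A/C362A *Cflar*-/- *Mlkl*-/- replicate 3. Replicate numbers did not pair the libraries (correlations of deviations -0.0744, 0.256 and 0.168, and 2 of 3 libraries closest to their own number), and the replicate block gave 1084 calls, 1068 of them shared with the fit without it. Among the genes described above the block ended the calls of *Nr0b2* (adjusted p = 0.062), *Ppbp* (adjusted p = 0.058) and *Il6* (adjusted p = 0.13). Some changes that were not called turned direction, and the cause was not tested. With a library left out, *Casp8* ran from -0.01 to 0.06, *Col3a1* from -0.13 to 0.06, *Cxcl5* from -0.15 to 0.69, *Fadd* from -0.15 to 0.02, *Gcg* from -0.16 to 0.01, *Gkn3* from -3.53 to 1.67, *Tnf* from -0.47 to 0.03 and *Il1b* from -0.36 to 0.23. *Il1b* was -0.07 with limma-voom and -0.06 with the replicate block, and *Gcg* was 0.00 with only the groups compared. Fold changes of genes under about 10 reads a library are limited by depth.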

Other observations

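Genes of metabolism outside absorption moved in single members. Of 18 cytochrome P450 and drug metabolism genes 2 were called higher and 3 lower, with a median of 0.23. *Ugt2b5*, which attaches glucuronic acid to drugs and steroids, was at 3.74, 4.54 and 5.71 RPKM in *Cflar*-/- and 12.9, 9.76 and 12.4 in C362A control intestines (log2 fold change -1.33 ± 0.15 (SE), adjusted p = 0.00015), and *Cyp3a13*, a drug-metabolizing P450, at 28.4, 30.5 and 61.8 against 79.9, 87.1 and 94.9 (log2 fold change -1.12 ± 0.23 (SE), adjusted p = 0.0042). *Cyp2c65* was at 17.2, 8.63 and 6.16 against 4.2, 3.62 and 5.94 RPKM (log2 fold change 1.22 ± 0.31 (SE), adjusted p = 0.013). Neither of the genes called higher was called without C362A control replicate 1 or 2 or *Cflar*-/- replicate 1, and 1 gene was called lower without *Cflar*-/- replicate 1 or 2. Of 21 cholesterol synthesis genes *Idi1*, an isomerase early in the pathway, was called higher (log2 fold change 1.08 ± 0.28 (SE), adjusted p = 0.015, with 0.99 by limma-voom), and none was without C362A control replicate 1 or 3 or *Cflar*-/- replicate 1. Of 16 acute phase and complement genes the complement protease *C2* was called lower (9.8, 13.3 and 24.1 against 49.6, 46.1 and 47.7 RPKM, log2 fold change -1.6 ± 0.24 (SE), adjusted p = 0.0005).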
